A study of Mus musculus with 8 samples.

Results

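Ion pumps and chloride, sodium and bicarbonate transporters were examined in the cochlea of mice that lack the microRNAs miR-183 and miR-96. The members are the genes of the Na,K-ATPase subunits (Atp1a and Atp1b), the cation-chloride cotransporters (Slc12), the bicarbonate transporters (Slc4), the sodium-proton exchangers (Slc9), the anion exchangers (Slc26) and the chloride channels and exchangers (Clcn), with Bsnd. They were taken by symbol from array features that the platform annotation links to 1 gene symbol, with Slc4a1 and Slc26a5 left out, and the feature with the highest mean stood for each gene. This gave 49 genes, from 50 features, out of 22180 genes on 23521 features. The symbol patterns also took in 3 adaptor proteins that are not transporters, Slc4a1ap, Slc9a3r1 and Slc9a3r2.

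Total RNA came from whole encapsulated cochleae at postnatal day 16, with both ears of an animal pooled, and was measured on Affymetrix Mouse Gene 2.0 ST arrays. There were 4 knockout animals, labelled miR-183/96 KO, and 4 control animals, which the design text calls wild type. No label gives the strain, sex, litter or kind of deletion, or says whether controls were littermates. The encapsulated cochlea holds bone, marrow, nerve, blood and attached muscle beside the sensory and secretory epithelia, so fewer cells of a type and less RNA per cell cannot be told apart. The values are log2 expression values, so a difference of 1 is a doubling. All differences are knockout minus control, with the standard error (SE) of the limma fit, and group values are means ± SD over 4 animals.

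The cochlear lateral wall works as a chloride- and potassium-driven battery. In marginal cells of the stria vascularis, Na,K-ATPase and the cotransporter Slc12a2 load potassium and chloride from the blood side. Chloride recycling in these cells needs barttin, the channel subunit encoded by Bsnd, and potassium enters the endolymph through Kcnq1 and Kcne1. Pendrin, encoded by Slc26a4, secretes bicarbonate into endolymph, and Slc4a11 is a transporter of the fibrocytes of the spiral ligament. Loss of Slc12a2, Slc26a4, Bsnd or Slc4a11 causes hearing loss in mice or humans.

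The deleted microRNAs are shown because they define the groups. The mature sequences are from RefSeq (GRCm38.p6), 5′ to 3′, with the seed, bases 2 to 8, in capitals. All lie on the minus strand of chromosome 6, and mmu-miR-182-5p is the third microRNA of the cluster, not named as deleted in the labels.
mmu-miR-183-5p: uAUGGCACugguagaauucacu
mmu-miR-96-5p: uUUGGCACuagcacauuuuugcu
mmu-miR-182-5p: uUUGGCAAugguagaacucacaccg
The 3 seeds differ from each other. The array feature of Mir96 read 4.01 to 4.31 in knockout and 5.26 to 6.23 in control animals and fell by 1.48 (limma adjusted p = 0.00932). The Mir183 feature read 1.82 to 2.40 against 2.23 to 2.84, with a difference of -0.33 (adjusted p = 0.398), and the Mir182 feature 3.46 to 4.23 against 3.33 to 3.81, with a difference of 0.35 (adjusted p = 0.364). Whether the members' transcripts hold sites for these seeds was not analysed here.

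None of the 49 genes passed the test over all features (0 at an adjusted p under 0.05, where 3 of 23521 features, 0.0128%, passed). The smallest adjusted p among them was 0.286, and the differences ran from -0.59 to 0.40. At an unadjusted p under 0.05 there were 12 members. Of these, 8 were lower in knockout cochlea, 16.3% of the members, where 7.25% of all features were. The lower ones were Slc4a10, Atp1b1, Atp1b3, Slc4a11, Clcn3, Slc12a2, Slc12a4 and Clcn7. The 4 higher ones, 8.16% of members against 7.04% of all features, were Slc4a9, Slc12a1, Slc4a3 and Slc26a3, a share near that of all features. Slc4a9, Slc12a1 and Slc26a3 had mean levels of 4.97, 4.57 and 4.65, at percentiles 34.3, 24.6 and 26.3 of all features. Their signal could not be told from background. Over all 49 genes the median difference was -0.03, beside 0.01 over all features, and 51.0% of members were below 0 against 47.6% of all features. The count of 12 became 7 without knockout replicate 4 and 7 without control replicate 4.

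Groups that did not overlap gave a similar picture. In 5 members every knockout animal lay below every control animal, 10.2% of members against 2.65% of all features. These were Slc4a10, Atp1b1, Slc12a2, Slc12a4 and Clcn5. In 1 member, Slc4a3, every knockout animal lay above every control animal, 2.04% of members against 3.3% of all features. By subfamily, all 4 Atp1b genes had negative differences (median -0.30), as did 5 of 8 Slc12 genes (median -0.14), 5 of 9 Slc4 genes (-0.03), 5 of 9 Slc9 genes (-0.03) and 5 of 8 chloride channel genes with Bsnd (-0.16). In the Slc26 family 1 of 10 was negative (median 0.08). These counts depend on signal level. When all features were ranked by mean level and cut into 10 deciles, 20.3% were below 0 in decile 1 and 87.7% in decile 10, the highest. Atp1b1, Atp1b2 and Atp1b3 lay in decile 10, where the median difference of all features was -0.21 as deposited and -0.07 after cyclic loess. The Atp1b median was -0.30 as deposited and -0.22 after cyclic loess.

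**Figure D1:**
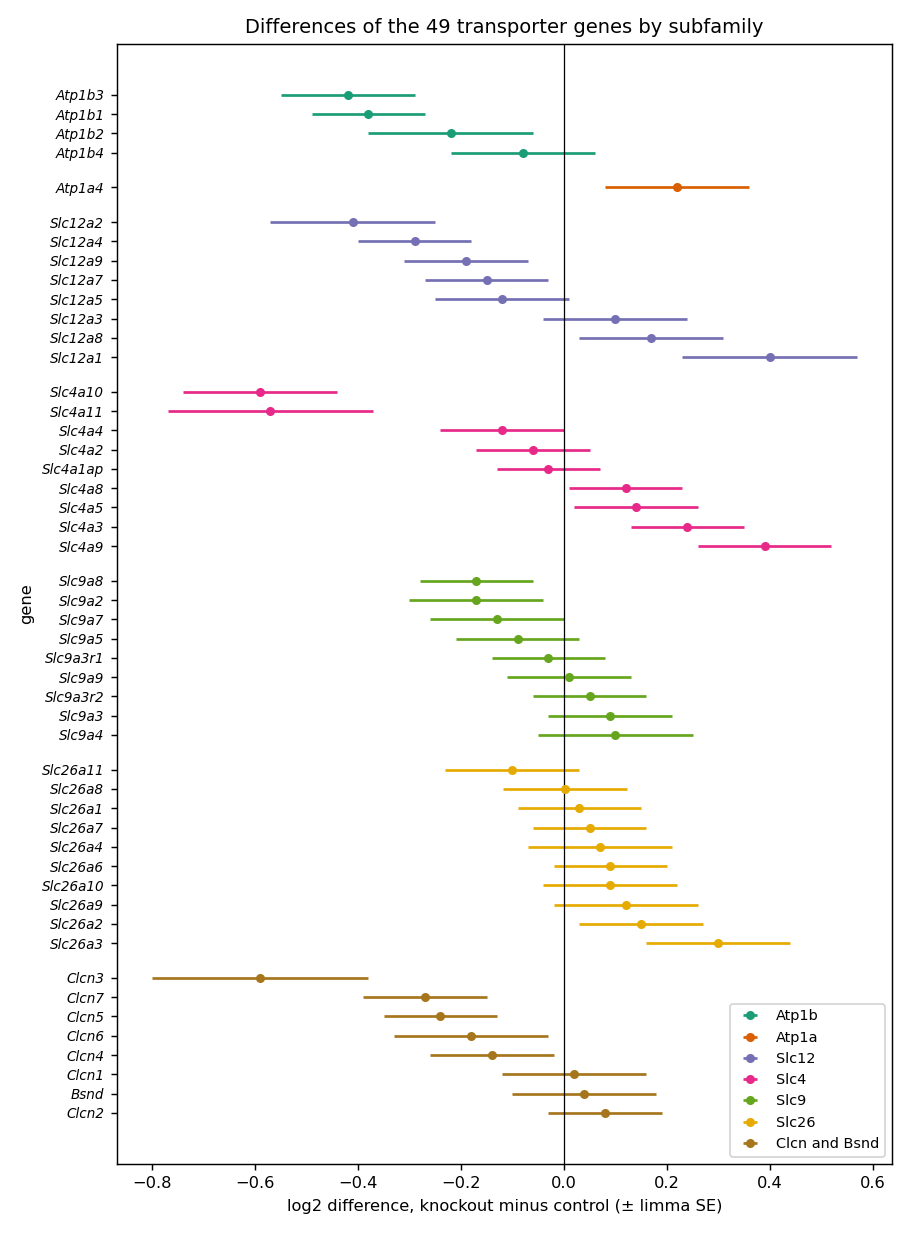
The log2 difference (knockout minus control, horizontal axis) of each of the 49 genes, grouped by subfamily, with bars for the limma SE. The lowest genes are Slc4a10 and Clcn3, both at -0.59, and the highest is Slc12a1 at 0.40, while all 4 Atp1b genes lie below 0, 3 of them at a signal level where 87.7% of all features do.

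The Na,K-ATPase exchanges sodium for potassium across the cell membrane, and its beta subunits bring the catalytic alpha subunit to the membrane. Atp1b1, the most widely expressed beta subunit, read 9.31, 8.94, 9.12 and 9.20 in the knockout animals and 9.61, 9.47, 9.57 and 9.48 in the control animals. The highest knockout animal was lower than the lowest control animal. The difference was -0.38 (SE 0.11), or 1.31-fold, between control animals at 9.53 ± 0.07 and knockout animals at 9.14 ± 0.15 (SD, n = 4; adjusted p = 0.291). It stayed at an unadjusted p under 0.05 in 19 of 19 alternatives, at -0.27 after cyclic loess and -0.51 when signal range was a covariate.

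Atp1b3, another beta subunit, read 8.02, 7.91, 7.59 and 7.61 in the knockout animals against 8.18, 8.35, 7.97 and 8.30 in the control animals. The groups overlapped only through knockout replicate 1 and control replicate 3. The difference was -0.42 (SE 0.13; adjusted p = 0.301), and it was -0.15 once signal range entered as a covariate (adjusted p = 0.961). Atp1b2, the beta subunit that stria vascularis and glia use, read 7.80, 7.19, 7.45 and 7.38 in knockout and 8.09, 7.72, 7.43 and 7.44 in control animals. Its groups overlapped, and the difference was -0.22 (SE 0.16; adjusted p = 0.525). It was -0.07 without control replicate 1, -0.07 after repeated quantile normalization and -0.06 after cyclic loess. Atp1b4, which in placental mammals is not a pump subunit, was at -0.08. Atp1a4, the alpha subunit of sperm, read 5.07, 5.30, 5.57 and 5.56 in knockout and 5.19, 4.99, 5.29 and 5.14 in control animals, with overlap and a difference of 0.22 (SE 0.14; adjusted p = 0.440).

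Promoters are printed for the 3 members with the smallest p, which were all lower in knockout cochlea. Each is the 300 bases from 250 before to 50 after the annotated start, from RefSeq (GRCm38.p6), read 5′ to 3′ on the strand of the gene. Atp1b1 is at chr1:164458306-164458605 on the minus strand, Atp1b3 at chr9:96364382-96364681 on the minus strand and Slc4a10 at chr2:62046265-62046564 on the plus strand, the latter at the more upstream of 2 listed starts, as for Atp1b3. Capitals mark matches, on either strand, to the GC box GGGCGG, the CCAAT box, the TATA box TATAAA, the E-box CACGTG, the estrogen-related receptor half-site AAGGTCA, the forkhead motif TGTTTAC or the cAMP response element TGACGTCA.
Atp1b1: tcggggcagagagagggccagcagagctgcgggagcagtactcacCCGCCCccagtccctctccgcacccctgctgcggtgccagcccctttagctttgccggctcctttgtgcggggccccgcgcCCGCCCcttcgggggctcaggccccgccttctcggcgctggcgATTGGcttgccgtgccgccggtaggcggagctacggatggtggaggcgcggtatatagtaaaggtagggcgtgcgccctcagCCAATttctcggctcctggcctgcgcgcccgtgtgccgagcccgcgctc
Atp1b3: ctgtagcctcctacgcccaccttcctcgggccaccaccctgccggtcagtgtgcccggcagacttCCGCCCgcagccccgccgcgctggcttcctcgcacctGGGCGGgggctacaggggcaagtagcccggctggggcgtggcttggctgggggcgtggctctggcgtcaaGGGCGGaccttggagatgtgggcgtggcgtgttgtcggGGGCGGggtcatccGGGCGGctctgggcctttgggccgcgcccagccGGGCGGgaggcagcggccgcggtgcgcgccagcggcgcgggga
Slc4a10: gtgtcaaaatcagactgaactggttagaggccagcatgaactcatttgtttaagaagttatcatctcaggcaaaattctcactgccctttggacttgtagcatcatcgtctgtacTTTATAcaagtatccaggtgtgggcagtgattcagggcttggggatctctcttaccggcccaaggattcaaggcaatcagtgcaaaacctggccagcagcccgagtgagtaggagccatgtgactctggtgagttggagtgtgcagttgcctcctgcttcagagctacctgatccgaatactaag
The Atp1b1 window held 2 GC boxes and 2 CCAAT boxes, and 71.0% of its bases were G or C. The Atp1b3 window held 6 GC boxes at 76.0% G or C. The Slc4a10 window, at 48.3% G or C, held 1 match to the TATA box and 0 GC boxes. The GC box was thus in both Atp1b windows, and none of the 7 motifs was in all 3 windows.

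Over the 39 members found in the promoter table, with 53 promoters, GC boxes were present in 50.9% of promoters against 35.7% of all 32851 promoters of the same length. Their median G or C content was 60.3% against 52.7%. CCAAT boxes were in 35.8% against 37.4%, TATA boxes in 18.9% against 13.6% and E-boxes in 18.9% against 7.15%. The estrogen-related receptor half-site, searched because Esrrb acts in marginal cells, was in 3.77% against 4.72%. The forkhead motif, searched because Foxi1 controls Slc26a4, was in 3.77% against 3.65%, and the cAMP response element in 3.77% against 1.79%. These are matches of letters in 1 window per start, and they were compared without a test.

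The Slc12 cotransporters carry chloride with sodium, potassium or both. Slc12a2, the potassium-loading cotransporter of marginal cells, read 8.09, 7.94, 7.22 and 7.86 in the knockout animals against 8.27, 8.10, 8.16 and 8.21 in the control animals. The groups did not overlap, but knockout replicate 1 lay just below control replicate 2, and knockout replicate 3 was the lowest by far. The difference was -0.41 (SE 0.16), from 8.19 ± 0.07 to 7.78 ± 0.38 (SD, n = 4; adjusted p = 0.305). Without knockout replicate 3 it was -0.23 and after cyclic loess -0.25, and in neither was the unadjusted p under 0.05. Markers of the marginal cell were also lower on average, but their lowest animal was knockout replicate 2 (5.39), not knockout replicate 3 (5.44). Of that list 7 of 8 genes were below 0 and 0 passed (46.6% of all features were below 0 in decile 6, which holds the list's median level), with a mean level of 5.39 to 5.59 in knockout and 5.60 to 5.74 in control animals, and the part of cell number in the Slc12a2 result was not tested.

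Slc12a4, a broadly expressed potassium-chloride cotransporter, read 6.35, 6.30, 6.20 and 5.96 in knockout and 6.46, 6.60, 6.52 and 6.36 in control animals. The groups did not overlap, by a narrow margin, and the difference was -0.29 (SE 0.11; adjusted p = 0.309). It was the only member with a second feature. The second feature read 4.80, 4.51, 4.72 and 4.97 in knockout against 5.13, 5.24, 4.95 and 5.11 in control animals. Its mean level of 4.93 lay at percentile 33.3 of all features, so its signal could not be told from background. That feature differed in the same direction, by -0.36 (SE 0.13; adjusted p = 0.301), with an overlap between knockout replicate 4 and control replicate 3.

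The other cotransporters did not follow as a group. Slc12a1, the sodium-potassium-chloride cotransporter of the kidney, was at 0.40 (adjusted p = 0.317) with a mean level of 4.57, and its difference was -0.03 with signal range as a covariate. Slc12a3, the thiazide-sensitive kidney form, was at 0.10. Slc12a5, which extrudes chloride from neurons, was at -0.12. Slc12a7, a potassium-chloride cotransporter of supporting cells whose loss causes deafness in mice, was at -0.15. Slc12a9 was at -0.19 and Slc12a8 at 0.17.

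The next list held genes of the kinase pathway that regulates these cotransporters, not all of them kinases. Of these genes, 10 of 13 were below 0 (69.1% of all features in the decile of the list's median level), with a median of -0.11. At an unadjusted p under 0.05 there were 3, all lower, or 23.1% (13.3% of upper-level features and 7.25% of all features), and 0 passed. Stk39, the kinase that phosphorylates and activates Slc12a2, read 6.57, 6.43, 5.82 and 6.41 in knockout against 6.88, 6.97, 6.51 and 6.78 in control animals. As for Slc12a2, knockout replicate 3 was the lowest animal. The Stk39 difference was -0.48 (SE 0.16; adjusted p = 0.301). Cab39l, a scaffold that activates Stk39, was at -0.38 (SE 0.11; adjusted p = 0.298), and its groups did not overlap.

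**Figure D2:**
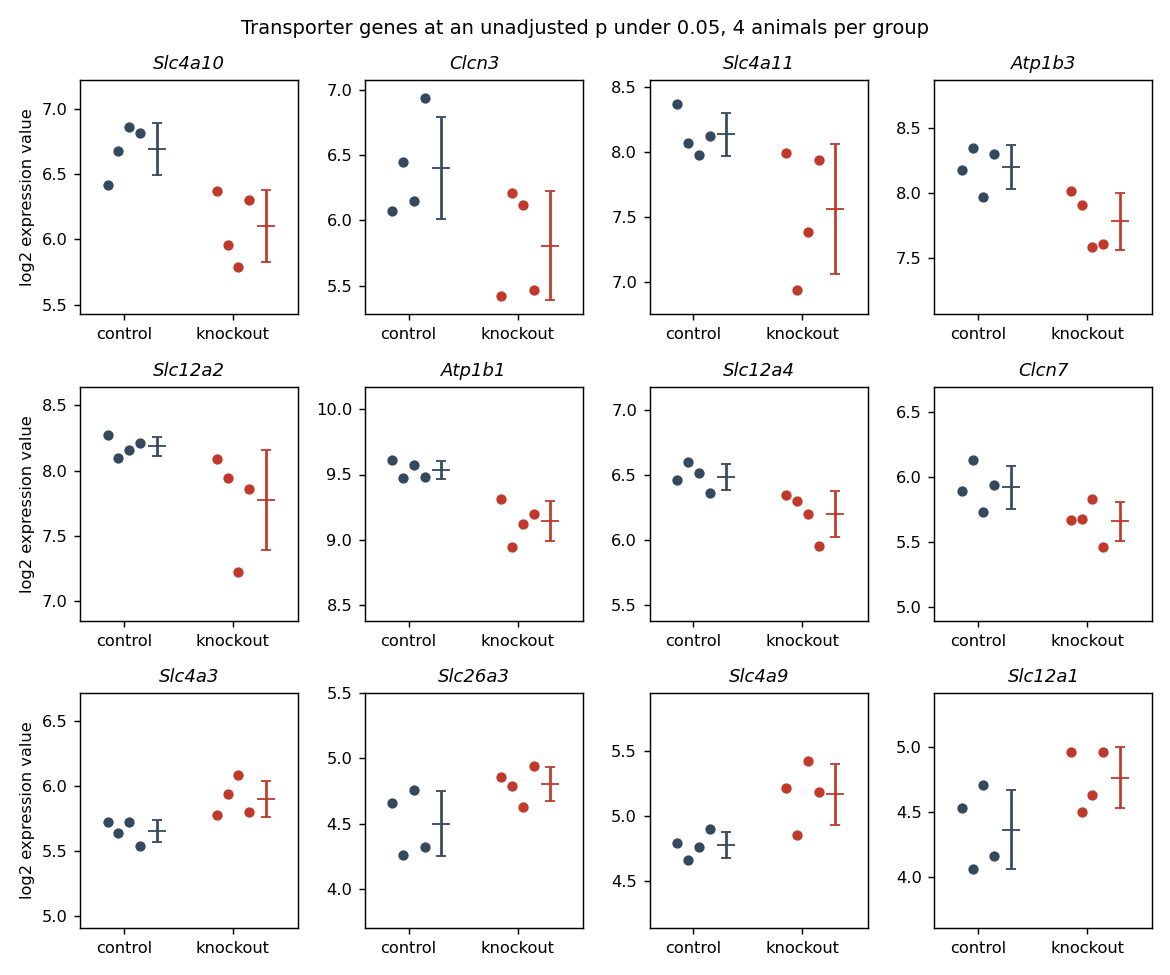
Log2 expression value (vertical axis, each panel spanning a range of the same size) in each of the 4 control and 4 knockout animals for the 12 members at an unadjusted p under 0.05, with bars for the mean ± SD. Groups do not overlap for Slc4a10, Atp1b1, Slc12a2 and Slc12a4, lower in knockout, and Slc4a3, higher. Slc4a11 and Slc12a2 vary more among knockout than control animals.

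The Slc4 family moves bicarbonate, and its members went in both directions. Slc4a10, a sodium-coupled bicarbonate transporter of neurons and choroid plexus, read 6.37, 5.96, 5.79 and 6.30 in the knockout animals and 6.42, 6.68, 6.86 and 6.82 in the control animals. No knockout value reached the control range, with knockout replicate 1 close to control replicate 1. The difference was -0.59 (SE 0.15), or 1.51-fold, from 6.69 ± 0.20 to 6.10 ± 0.27 (SD, n = 4; adjusted p = 0.286). It had an unadjusted p under 0.05 in 19 of 19 alternatives, between -0.68 and -0.49 when 1 animal was left out and at -0.52 after cyclic loess. Neuronal markers moved beside it. Of the spiral ganglion neuron list 9 of 10 genes were below 0 (57.4% of all features in decile 7, that of the list's median level) and 1, Snap25, passed. The list's mean level was 5.73 to 6.05 in knockout against 6.16 to 6.65 in control animals, without overlap. Markers of brain and choroid plexus were at 5.10 to 5.42 against 5.17 to 5.28, with a median difference of 0.02. Whether fewer neurons or less neuronal RNA had a part in the Slc4a10 difference was not tested.

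Slc4a11, the fibrocyte transporter, read 7.99, 6.94, 7.39 and 7.94 in the knockout animals and 8.37, 8.07, 7.98 and 8.12 in the control animals. Knockout replicates 1 and 4 were close to the lowest control animal, and knockout replicate 2 was the lowest. The difference was -0.57 (SE 0.20), from 8.13 ± 0.17 to 7.57 ± 0.50 (SD, n = 4; adjusted p = 0.301). Without knockout replicate 2 it was -0.36, and after cyclic loess it was -0.41 with an unadjusted p above 0.05. Fibrocyte markers of the spiral ligament had 9 of 10 genes below 0 and 0 passing, near the 87.7% of all features in decile 10, where the list's median level lies. Their mean levels were 7.62 to 8.08 in knockout and 7.88 to 8.07 in control animals, so the groups overlapped. The part of fibrocyte content in the Slc4a11 result was not tested.

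Slc4a9, an anion exchanger of kidney intercalated cells, read 5.21, 4.85, 5.42 and 5.18 in knockout and 4.79, 4.66, 4.76 and 4.90 in control animals. Knockout replicate 2 lay within the control range and the other 3 lay above it. The difference was 0.39 (SE 0.13; adjusted p = 0.301), at a mean level of 4.97 in decile 4 of 10 of the features by level, where the median difference of all features was 0.08. Slc4a3, an anion exchanger of brain and heart, was at 0.24 (adjusted p = 0.342) and did not overlap between groups. The remaining family members were near 0, with Slc4a5 at 0.14, Slc4a8 at 0.12, Slc4a2 at -0.06, Slc4a4 at -0.12 and the adaptor Slc4a1ap at -0.03. None of these had an unadjusted p under 0.05.

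The Slc9 exchangers trade sodium or potassium for protons at the plasma membrane or in the Golgi and endosomes, and 0 of 9 members had an unadjusted p under 0.05. Slc9a8, an exchanger of the Golgi, read 6.25, 6.21, 5.94 and 6.09 in knockout and 6.33, 6.26, 6.34 and 6.25 in control animals. The groups touched at knockout replicate 1 and control replicate 4, and the difference was -0.17 (SE 0.11; adjusted p = 0.443). Slc9a2, an epithelial plasma membrane exchanger, read 5.73, 5.74, 5.34 and 5.92 in knockout and 5.92, 5.88, 5.74 and 5.86 in control animals, with overlap and a difference of -0.17 (SE 0.13; adjusted p = 0.538). The scaffold Slc9a3r1, which anchors transporters to the cytoskeleton, read 6.97, 6.83, 6.88 and 6.65 in knockout against 6.92, 6.76, 6.78 and 6.98 in control animals. These values were interleaved, and the difference was -0.03 (SE 0.11; adjusted p = 0.919), and 0.09 after cyclic loess. The other members ran from -0.13 (Slc9a7) and -0.09 (Slc9a5) to 0.09 (Slc9a3) and 0.10 (Slc9a4), with Slc9a9 at 0.01 and Slc9a3r2 at 0.05.

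The Slc26 exchangers carry chloride, bicarbonate, iodide or sulfate, and 9 of 10 had positive differences. In decile 5, which holds the family's median level, 63.2% of all features were above 0. The family's median difference was 0.08 as deposited and 0.01 after cyclic loess. Pendrin (Slc26a4), which marks the spindle and root cells of the lateral wall, read 5.24, 5.27, 4.82 and 5.31 in knockout and 5.15, 5.28, 4.88 and 5.06 in control animals. The values were interleaved, and the difference was 0.07 (SE 0.14; adjusted p = 0.828). The sign turned after cyclic loess (-0.03). Its mean level of 5.13 lay at percentile 39.0 of all features, and no detection call was available, so its signal could not be separated from background. Markers of root and spindle cells had 3 of 7 genes below 0, with mean levels of 6.29 to 6.39 in knockout and 6.27 to 6.33 in control animals.

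Slc26a3, a chloride-bicarbonate exchanger of the colon, read 4.86, 4.79, 4.63 and 4.94 in knockout and 4.66, 4.26, 4.76 and 4.32 in control animals. Its mean level of 4.65 lay at percentile 26.3 of all features. The groups overlapped through knockout replicate 3 and control replicates 1 and 3, and the difference of 0.30 (SE 0.14; adjusted p = 0.347) was 0.02 with signal range as a covariate. Slc26a2, the sulfate transporter of cartilage, read 6.28, 6.04, 6.12 and 5.90 in knockout and 5.82, 5.94, 6.09 and 5.90 in control animals. It overlapped, with a difference of 0.15 (SE 0.12; adjusted p = 0.546). Slc26a7, an anion transporter of stomach and kidney, read 6.60, 6.47, 6.22 and 6.25 in knockout and 6.22, 6.40, 6.32 and 6.39 in control animals. These groups also overlapped, with a difference of 0.05 (SE 0.11; adjusted p = 0.848) that was -0.03 after centring arrays on their median. The remaining members were Slc26a9 at 0.12, Slc26a6 and Slc26a10 at 0.09, Slc26a1 at 0.03, the sperm form Slc26a8 at 0.0026 and Slc26a11 at -0.10.

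The Clcn family includes plasma membrane channels and the chloride-proton exchangers of endosomes, lysosomes and vesicles. Clcn3, an exchanger of endosomes and synaptic vesicles, read 5.42, 6.21, 6.12 and 5.47 in the knockout animals and 6.07, 6.45, 6.15 and 6.94 in the control animals. Knockout replicates 1 and 4 were lower than every control animal, and knockout replicates 2 and 3 lay within the control range. The difference was -0.59 (SE 0.21), from 6.40 ± 0.39 to 5.81 ± 0.42 (SD, n = 4; adjusted p = 0.305). Cyclic loess left it at -0.57, but signal range as a covariate brought it to -0.05 (adjusted p = 0.999), and without knockout replicate 1 it was -0.46 with an unadjusted p above 0.05.

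Clcn7, the lysosomal exchanger that osteoclasts need to acidify bone, read 5.67, 5.68, 5.83 and 5.46 in knockout and 5.89, 6.13, 5.73 and 5.94 in control animals. Only knockout replicate 3 and control replicate 3 crossed, and the difference was -0.27 (SE 0.12; adjusted p = 0.347). It was -0.08 with signal range as a covariate, and 2 of the 8 fits that left out 1 animal had an unadjusted p under 0.05. Its subunit gene Ostm1 was at -0.20 (adjusted p = 0.430). Osteoclast markers had 8 of 9 genes below 0 and 0 passing (82.4% of all features were below 0 in decile 9, that of their median level), with mean levels of 7.13 to 7.46 in knockout and 7.26 to 7.58 in control animals, and their part in the Clcn7 value was not tested. Clcn5, an endosomal exchanger, was at -0.24 (adjusted p = 0.350), and its groups did not overlap. Clcn4, a related endosomal exchanger, read 6.19, 6.32, 6.44 and 6.06 in knockout and 6.27, 6.39, 6.55 and 6.35 in control animals. It overlapped, at -0.14 (SE 0.12; adjusted p = 0.572), and Clcn6, of late endosomes, was at -0.18. The endosomal and lysosomal genes Clcn3, Clcn4, Clcn5, Clcn6 and Clcn7 all had negative differences. They lay in deciles 6, 7 and 8, where 46.6%, 57.4% and 69.1% of all features were below 0.

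Of the plasma membrane channels, Clcn2, expressed in many epithelia and glia, was at 0.08. Clcn1, the chloride channel of skeletal muscle, read 4.90, 4.97, 4.71 and 5.28 in knockout and 4.80, 5.07, 5.14 and 4.76 in control animals, at 0.02 (adjusted p = 0.949). Its mean level of 4.95 lay at percentile 33.9 of all features, so its signal could not be told from background. Skeletal muscle markers ranged from 5.45 to 6.86 in knockout and from 6.66 to 8.77 in control animals, highest in control replicate 2. The part of muscle content in the Clcn1 value was not tested. Bsnd, the barttin subunit, read 5.28, 4.85, 5.07 and 5.18 in knockout and 5.17, 4.74, 5.26 and 5.04 in control animals. The values were interleaved, with a difference of 0.04 (SE 0.14; adjusted p = 0.897) that turned to -0.06 after cyclic loess. Its mean level of 5.08 lay at percentile 37.4 of all features, so its signal too could not be told from background.

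The differences of the members followed their signal level. The 8 lower members had mean levels of 5.79 to 9.34, and the 4 higher ones of 4.57 to 5.78. Across the 49 genes the Spearman correlation of mean level and difference was -0.64 (49 genes that share the same 8 arrays), beside -0.53 across all features, and it was -0.30 after cyclic loess. In decile 10, the highest, the median difference of all features was -0.21, against -0.38 for Atp1b1, -0.42 for Atp1b3, -0.41 for Slc12a2, -0.57 for Slc4a11 and -0.22 for Atp1b2. Slc4a10 (-0.59) lay in decile 9, where the median was -0.16, and Clcn3 (-0.59) and Slc12a4 (-0.29) in decile 8, where it was -0.09.

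Members at or above the median level of features were therefore set against features of the same range. Of these 29 members, 8 (27.6%) were lower at an unadjusted p under 0.05, where 13.3% of 11761 such features were, and 5 (17.2%) were lower with no overlap, where 4.66% were. Of the 29, 21 (72.4%) were below 0, near the 68.7% of such features. Their median difference was -0.15 beside -0.10. The mean level of the 29 was 6.26 to 6.39 in knockout and 6.43 to 6.48 in control animals. Of the other 20 members 3 were higher at an unadjusted p under 0.05 (where 10.5% of such features were) and 0 were lower (1.16% of such features). Signal level within an array also depends on each feature's probes, so these levels do not rank the genes by abundance.

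**Figure D3:**
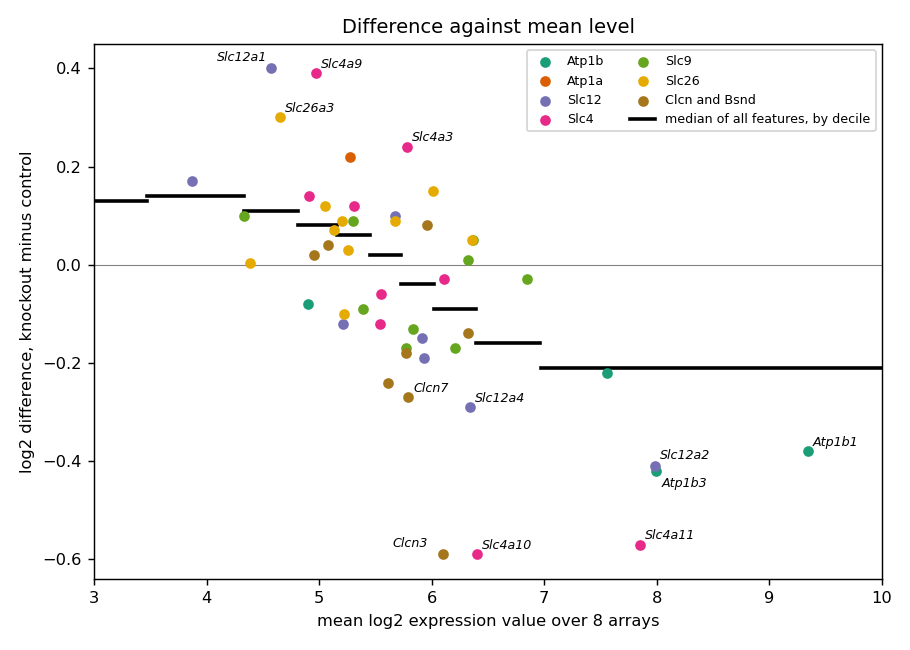
The log2 difference of each of the 49 genes (vertical axis) against its mean log2 expression value over the 8 arrays (horizontal axis), with black lines for the median difference of all features in each of 10 deciles of level. The lines go from 0.13 in decile 1 to -0.21 in decile 10. Labels mark the members at an unadjusted p under 0.05. The 8 labelled lower genes lie below their decile's line, but they were picked for a low difference, so their position is no separate result.

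The 12 members at an unadjusted p under 0.05 were recomputed under other processing. The signal range of an array, the SD of its log2 values, was 1.37 to 1.44 in knockout and 1.41 to 1.56 in control animals. After cyclic loess, which reduces level-dependent shifts between arrays, all 8 lower and all 4 higher members kept their sign. Of the 8, 5 (Slc4a10, Atp1b1, Atp1b3, Clcn3 and Clcn7) stayed at an unadjusted p under 0.05, and of the 4, 2 (Slc4a9 and Slc4a3) did. Slc4a11 (-0.41), Slc12a2 (-0.25) and Slc12a4 (-0.23) did not. With signal range as a covariate 3 of the 8 did (Slc4a10, Atp1b1 and Slc4a11) and 0 of the 4, and Slc12a1 changed sign (-0.03). That covariate overlaps with genotype, so it also removes part of any difference between the groups. With the muscle marker level as a covariate 5 of the 8 did (Slc4a10, Atp1b1, Atp1b3, Slc4a11 and Slc12a2) and 0 of the 4. Under it Slc4a11 was at -0.76, Clcn3 at -0.49, Clcn7 at -0.20 and Slc12a1 at 0.23. The muscle level too overlaps with genotype, so it also removes part of any difference between the groups. It was 5.45 to 6.86 in knockout and 6.66 to 8.77 in control animals. All 10 muscle markers were below 0, with a median of -0.91.

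**Figure D4:**
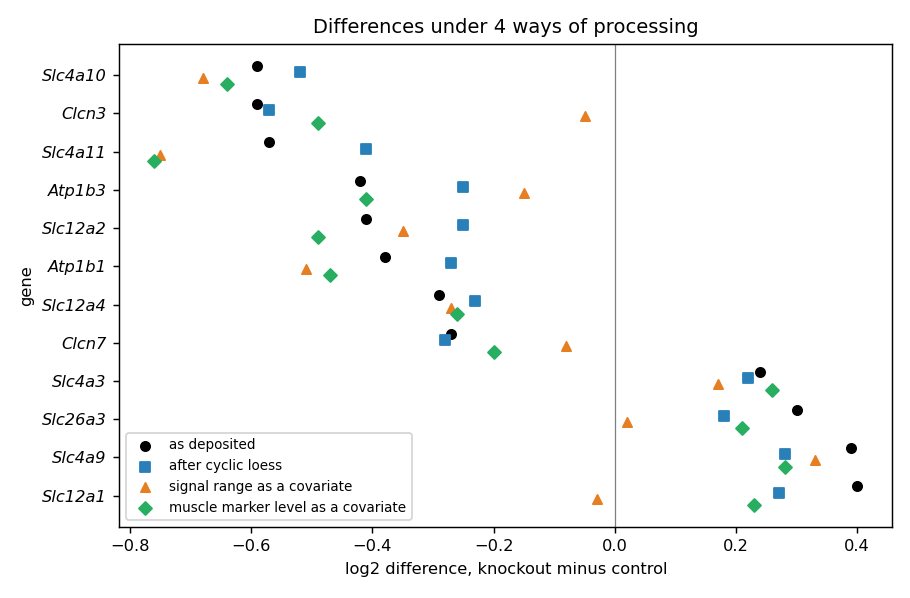
The log2 difference (horizontal axis) of the 12 members at an unadjusted p under 0.05 as deposited, after cyclic loess, with signal range and with the muscle marker level as a covariate. Slc4a10 stays between -0.68 and -0.52, while Clcn3 goes from -0.59 to -0.05 with signal range as a covariate.

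Genes that work with these transporters were described from 7 lists, of which 0 members passed. The V-type proton pump, which acidifies vesicles and supplies the proton gradient for the Clcn exchangers, had 19 of 23 subunit genes below 0 (82.6%) with a median of -0.24. The list's median level lay in decile 9, where 82.4% of all features were below 0 with a median of -0.16, so the share is that of the background. At an unadjusted p under 0.05, 10 were lower (43.5%, against 13.3% of upper-level features and 7.25% of all features) and 1 was higher. The upper-level features had a median level of 6.19 and this list 6.62, so the 13.3% is not matched to the list's level. Atp6v1b2, the widely expressed B subunit, read 7.51, 7.25, 7.08 and 6.82 in knockout and 7.79, 7.77, 7.49 and 7.85 in control animals. Knockout replicate 1 overlapped control replicate 3, and the difference was -0.56 (SE 0.14; adjusted p = 0.291). Atp6v1a, the catalytic A subunit, was at -0.34 (adjusted p = 0.305) with no overlap. The list median was -0.14 after cyclic loess.

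Of all features 46.6%, 57.4% and 69.1% were below 0 in deciles 6, 7 and 8, which hold the median levels of the remaining lists. The Na,K-ATPase regulators (decile 7) had 7 of 11 genes below 0 (median -0.11), with Fxyd6, a FXYD modulator of the pump, at -0.29 (adjusted p = 0.342) and Nkain1 at -0.24 (adjusted p = 0.368). Other P-type pumps (decile 8) had 12 of 17 below 0 (median -0.11), with Atp13a5 at -0.36 and the plasma membrane calcium pump Atp2b1 at -0.38. The lowest of them, Atp2a1, the calcium pump of fast skeletal muscle, was named after its values were seen. It read 8.52 in control replicate 2 and 5.45 in knockout replicate 1, the same animals in which the muscle markers were highest and lowest, and its difference was -0.72 (adjusted p = 0.415). Carbonic anhydrases (decile 6), which supply bicarbonate, had 7 of 14 below 0 and 0 at an unadjusted p under 0.05, with Car13 at -0.27 and Car5b at 0.21.

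In the list of endolymph potassium and pH regulators (decile 7) 9 of 20 were below 0 (median 0.05). The nuclear receptor gene Esrrg read 6.24, 6.14, 6.05 and 6.05 in knockout against 5.88, 5.92, 5.75 and 5.55 in control animals. It was higher in every knockout animal, by 0.35 (SE 0.11; adjusted p = 0.301), and was at 0.35 after cyclic loess as well. Scnn1g, an epithelial sodium channel subunit, was at 0.35 (adjusted p = 0.318). Of the volume-regulated and other anion channels (decile 6) 19 of 28 were below 0 (median -0.04), with the lipid scramblase Ano6 at -0.40 (adjusted p = 0.301, no overlap) and the calcium-activated chloride channel Ano1 at -0.26 (adjusted p = 0.403).

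**Figure D5:**
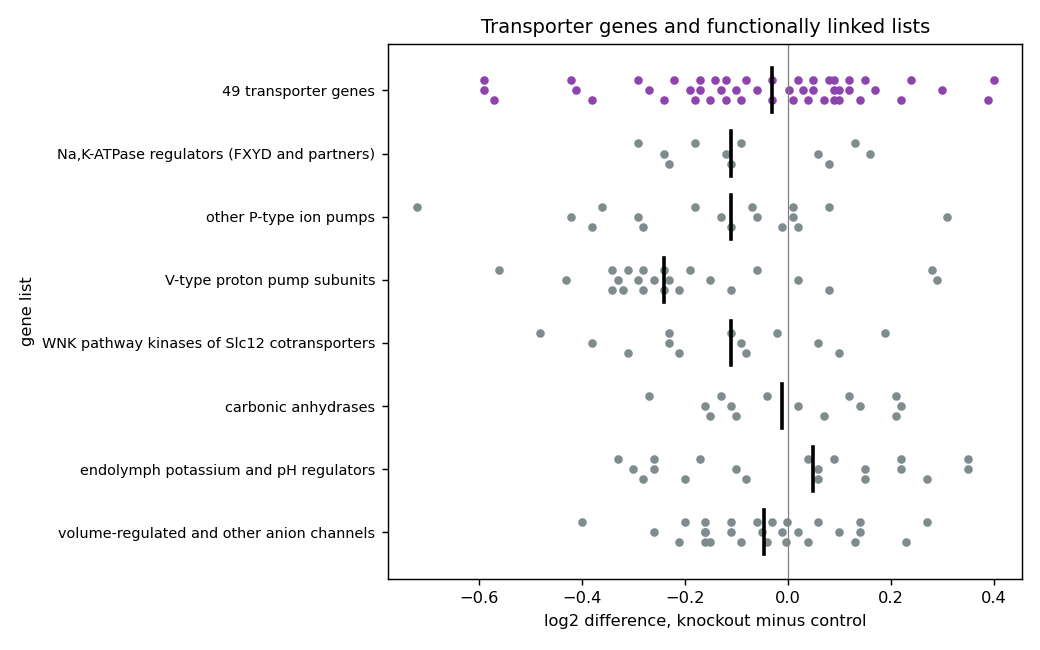
The log2 difference (horizontal axis) of the 49 transporter genes and of the genes in 7 functionally linked lists, 1 point per gene, with a black line at each median. The V-type proton pump has the lowest median, -0.24, and the endolymph regulators the highest, 0.05.

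Markers of the other cell types were compared by their mean level per animal. Stria intermediate cells were at 5.35 to 5.74 in knockout against 5.52 to 5.58 in control animals, stria basal cells at 6.65 to 6.98 against 6.75 to 6.95, and supporting cells at 5.40 to 5.71 against 5.57 to 5.88. Hair cells were at 5.53 to 5.76 against 5.93 to 6.05 and Schwann cells at 6.50 to 6.89 against 6.91 to 7.33, both without overlap. The hair cell gap came from 2 of 8 genes, Calb2 at -1.60 and Pvalb, which muscle also expresses, at -0.96. The other 6 ran from -0.14 to 0.04, and the list's median was -0.07. Erythroid markers were at 7.42 to 8.02 against 7.61 to 8.42 and osteoblast markers at 8.92 to 9.46 against 9.13 to 9.57. Of these 7 lists 1 gene passed, Calb2 of the hair cell list. Their part in the differences of the transporter genes was not tested.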

How the data were processed

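The authors deposited log2 expression values from 8 arrays (4 knockout, 4 control), summarized per gene by RMA in Expression Console, per the labels. No source used here gives the software version, which arrays were normalized together or a detection call. That the scale is log2 follows from the range of values, 0.90 to 13.5, with array medians of 5.10 to 5.28. Of 41345 features, 23521 had exactly 1 gene symbol, 1814 several and 16010 none in the platform annotation.

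Knockout was compared with control on the 23521 features in limma 3.58.1 (R 4.3.3) with lmFit and eBayes with intensity trend, with Benjamini-Hochberg adjustment over all of them and a threshold of 0.05. Each p-value tests the group difference against the spread between animals, which eBayes moderates towards that of features at a similar level. No p was adjusted over the members alone, and gene lists (7 functional, 14 of cell type markers) are described by counts and medians. The members and lists were chosen with earlier results of these data known.

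Full values are given for the 5 genes Slc12a2, Slc4a11, Slc26a4, Atp1b2 and Bsnd, and in each subfamily for the 2 members with the smallest p and the member with the highest mean; Clcn1, the second Slc12a4 feature, Stk39, Atp6v1b2 and Esrrg were added after values were seen, as were Slc4a3, Slc12a1 and Clcn5 in the counts. Some genes of these families are not reported here. Named list genes are the 2 with the smallest p, and Atp2a1 and Ostm1 were added. The steps were tested on simulated data. Alternatives were a replicate block, other eBayes settings, other feature sets, 3 further normalizations, array weights, 2 covariates, and leaving out each animal.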

Additional observations from a re-analysis of the deposited data

Results flagged for a closer look

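Of 40 groups of 4 animals checked, 2 for each of 20 genes, 1 held an animal far from the others, where chance gives about 1 in 20. Slc26a4 read 4.82 in knockout replicate 3, while the nearest of the other knockout animals read 5.24, a gap of 0.86 of the group's range, past Dixon's critical value for 4 samples. Without that animal the Slc26a4 difference was 0.18.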

How the results depend on the processing

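In every alternative run, 0 members passed. The count at an unadjusted p under 0.05 was 12 as deposited (8 lower, 4 higher), 10 lower and 2 higher after centring arrays on their median, 7 and 1 after repeated quantile normalization and 6 and 2 after cyclic loess. It was 5 with signal range and 6 with the muscle marker level as a covariate, all lower, and 7 to 12 when 1 animal was left out. The median difference of -0.03 was -0.11 after centring, -0.07 after repeated quantile normalization, -0.06 after cyclic loess, -0.10 for the 40 members with a mean of at least 5, -0.11 with signal range, -0.06 with muscle level and -0.06 to -0.02 with 1 animal left out. The median of all features moved too under some of these. It was 0.01 as deposited, -0.07 after centring and -0.03 after repeated quantile normalization and after cyclic loess. For features with a mean of at least 5 it was -0.06. It was -0.0039 with signal range, 0.0012 with muscle level and 0.0035 to 0.03 with 1 animal left out. With the replicate number as a block (replicate block) the count was 9, 7 of them lower, and no call changed. Same-numbered animals correlated at 0.0570, 0.212, 0.215 and -0.289 in their deviations from the group means. Differently numbered animals correlated at -0.35 to 0.399, so these values cannot show whether same-numbered animals were paired. Members near 0 changed sign. Bsnd was at -0.04 after centring, -0.05 after repeated quantile normalization, -0.06 after cyclic loess, -0.21 with signal range, -0.15 with muscle level and -0.06 to 0.12 with 1 animal left out. Slc26a4 was at -0.02, -0.02 and -0.03 under these 3 normalizations and -0.0029 to 0.18 with 1 animal left out. Slc26a7 was at -0.03 after centring and -0.02 to 0.10 with 1 animal left out. Slc9a3r1 was at 0.07 after repeated quantile normalization, 0.09 after cyclic loess, 0.08 with signal range and -0.07 to 0.03 with 1 animal left out. The cause of these changes was not tested. The other 380 values of the 20 genes kept their direction, but part of them could not change it. The replicate block, the other eBayes settings and testing other sets of features leave the difference itself unchanged. Taking the lowest-mean feature per gene changes only Slc12a4. Without a background measure, dim features limit what can be read.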
